A study of Homo sapiens with 6 samples.

Results

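Aminoacyl-tRNA synthetase genes were described in human HEK293A-TOA cells in which the splicing factor SFSWAP was knocked down. The 36 genes encode 18 cytosolic enzymes or subunits, 16 mitochondrial enzymes and 2 enzymes that serve both compartments (GARS1 and KARS1). Their introns and exons are the rows of the retained intron and skipped exon tables that carry one of the 36 gene symbols and a mean of at least 20 junction reads per library. This gave 131 introns in 24 genes, of 12867 such introns in 4117 genes, and 569 exon events in 34 genes, of 101163 in 9845 genes. A test also needed reads of both the spliced and the unspliced, or skipped, form, which kept 110 synthetase introns (24 genes) and 256 synthetase exon events (238 exons, 33 genes) of the 10155 introns and 48100 exon events tested in all. MARS2 and PARS2 had no row in either table, IARS2 had no tested exon event, and EARS2, EPRS1, FARS2, LARS2, RARS1, SARS1, TARS3, WARS1, WARS2 and YARS2 had no tested intron. Near the threshold, a VARS2 intron with a mean of 20.5 reads lay just inside (inclusion 8.87% in siSFSWAP, 33.6% in siNT) and a MARS1 intron with 17.5 reads just outside (70.7% in siSFSWAP, 84.0% in siNT). Among exon events, an AARS2 exon with 20.5 reads lay just inside (80.2% in siSFSWAP, 58.5% in siNT) and a VARS2 exon with 19.8 reads just outside (91.7% in siSFSWAP, 100% in siNT).

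Aminoacyl-tRNA synthetases join each amino acid to its tRNA, so that ribosomes place the right residue at each codon. The cytosol and the mitochondrion use largely separate sets of these enzymes, and both sets are encoded in the nucleus, the mitochondrial enzymes mostly under symbols that end in 2. Several cytosolic enzymes sit together in the multisynthetase complex, and many cytosolic synthetase genes are targets of ATF4, the transcription factor of the amino acid response. QARS1, the glutaminyl enzyme, has no mitochondrial partner gene, because animal mitochondria make glutaminyl-tRNA from glutamyl-tRNA that EARS2 charges.

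The siSFSWAP group holds 3 biological replicates transfected with a mixture of 2 siRNAs against SFSWAP at 40 nM. The siNT group holds 3 that received non-target siRNA, recorded at the same dose of 40 nM and also as a mixture of 2. In its protein blot for the untreated samples the paper marks an SFSWAP siRNA as not effective. RNA was collected 5 days after transfection with no inhibitor given, and polyadenylated RNA was sequenced. HEK293A-TOA is a line of human embryonic kidney origin. The question was what SFSWAP, a nuclear protein related to SR splicing factors, does to splicing when it is depleted. Polyadenylated RNA limits what can be seen, since introns still present in unfinished transcripts are largely lost.

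Inclusion is the share of transcripts that keep an intron or exon, computed from junction reads divided by the effective length of each form. The retained intron table held 2767079 to 4450930 junction reads per library in siSFSWAP and 2827762 to 7465949 in siNT, and the median tested intron had 71 to 110 reads in siSFSWAP libraries and 69 to 180 in siNT libraries. The skipped exon table held 19515010 to 31980079 junction reads per siSFSWAP library and 20820210 to 55274283 per siNT library. Libraries are lettered a to c within a group, following their position in the tables. SFSWAP itself had 34.7, 34.6 and 21.3 spliced-read CPM in siSFSWAP, against 79.7, 86.5 and 80.2 in siNT (log2 change −1.46, SE 0.16, limma adjusted p 0.000353). The deepest library, siNT a, stood apart from siNT b and c. It had the lowest inclusion of the siNT libraries in 67 of the 110 synthetase introns (5219 of all 10155 tested introns) and was the siNT library nearest to the siSFSWAP mean in 18 of the 22 synthetase genes whose spliced reads changed (2519 of 3270 among all changed genes). Its part in the results was not tested beyond leaving it out.

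Most synthetase introns were well spliced in both groups, and the clearest retention was in SARS2, the mitochondrial seryl-tRNA synthetase. Of the 110 tested introns, 1 was called lower in siSFSWAP, which takes an adjusted p no higher than 0.05 together with a difference of 20 or more percentage points, and 0 were called higher. The whole table called 1.61% of introns lower and 0.148% higher. At the adjusted p alone 3 synthetase introns passed, all lower in siSFSWAP, where 3.22% of all tested introns passed in either direction. Beside the 0 called higher, 17 of the 110 introns (15.5%) passed an unadjusted p under 0.05 in either direction. Among all 10155 tested introns 1605 did (15.8%). Limma on the log odds called 0 introns in either direction over the whole table, so its 0 for the synthetase introns tells nothing about them. In 22 introns (20%) every siSFSWAP library lay below every siNT library, against 15.3% of all tested introns, and in 5 (4.55%) every siSFSWAP library lay above, against 6.02%. The median change was −0.70 points over the synthetase introns and −0.52 points over all tested introns. A lower mean in siSFSWAP was common in the whole table. It held for 75.9% of introns in genes with higher spliced reads, by the test given below. In genes with lower spliced reads it held for 45.2%, and in genes not called for 58%. The counts per gene below stand beside these shares.

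The introns that passed the adjusted p, and the QARS1 intron described with them, were short, between 87 and 130 nt. They are given so that the length and base composition behind the values can be seen, written 5′ to 3′ from GRCh38 with the first and last intronic bases, GT and AG, in capitals.
SARS2 intron 14 of 15 (chr19:38915907-38916036, minus strand): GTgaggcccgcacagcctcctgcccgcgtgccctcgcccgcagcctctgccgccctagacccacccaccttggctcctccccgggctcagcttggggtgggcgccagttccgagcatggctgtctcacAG
VARS1 intron 15 of 29 (chr6:31782634-31782720, minus strand): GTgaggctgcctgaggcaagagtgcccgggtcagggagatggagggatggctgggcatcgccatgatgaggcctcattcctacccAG
MARS1 intron 20 of 20 (chr12:57516338-57516434, plus strand): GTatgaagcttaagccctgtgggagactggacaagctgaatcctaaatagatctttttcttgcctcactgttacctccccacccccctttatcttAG
QARS1 intron 21 of 23 (chr3:49098259-49098352, minus strand): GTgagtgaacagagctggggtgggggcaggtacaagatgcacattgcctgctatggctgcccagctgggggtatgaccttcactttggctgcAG
All lie within the coding region of the transcript chosen by MANE, the reference set of 1 transcript per gene. GC content was 72.3% in the SARS2 intron, 63.2% in VARS1, 46.4% in MARS1 and 58.5% in QARS1.

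Intron 14 of SARS2 (ENSG00000104835.15) had 13.8%, 11.4% and 13.5% inclusion in siSFSWAP, against 38.3%, 49.2% and 75.0% in siNT. The groups did not overlap, and the siNT libraries differed among themselves more than the siSFSWAP libraries did. Mean inclusion was 12.9% ± 1.31 in siSFSWAP and 54.2% ± 18.8 in siNT (SD, n = 3 each), a change of −41.3 points (quasi-binomial test, adjusted p 0.00728). The siSFSWAP values rest on 16, 9 and 10 inclusion reads and 50, 35 and 32 spliced reads, and the siNT values on 51, 29 and 18 inclusion reads and 41, 15 and 3 spliced reads. Leaving out siSFSWAP library a, b or c, or siNT library b, ended the call, with adjusted p of up to 0.086, and the change stayed between −49.2 and −30.8 points over the 6 fits. A readthrough gene (ENSG00000269547) overlaps the locus on the same strand, so its reads cannot be told from those of SARS2.

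The other tested SARS2 introns were also lower in siSFSWAP, by smaller amounts that did not pass. Intron 15 (chr19:38915750-38915840) had 2.48%, 7.29% and 13.6% inclusion in siSFSWAP, against 13.7%, 28.4% and 30.7% in siNT (change −16.5 points, adjusted p 0.144). Without siNT library a intron 15 was called as well, at −21.7 points. Intron 8 (chr19:38918531-38918765) had 3.66%, 7.55% and 2.91% in siSFSWAP, against 5.15%, 18.6% and 20% in siNT (change −9.88 points, adjusted p 0.353). All 5 tested SARS2 introns had a lower mean in siSFSWAP. In 4 every siSFSWAP library lay below every siNT library, which held for 15.3% of all tested introns.

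VARS1, the cytosolic valyl-tRNA synthetase (ENSG00000204394.13), had a lower mean in siSFSWAP in most tested introns, and 1 of them passed the adjusted p. Intron 15 had 6.60%, 6.99% and 5.92% inclusion in siSFSWAP, against 12.7%, 22.9% and 28.7% in siNT, a change of −14.9 points (adjusted p 0.0346) that falls short of the 20-point threshold. Of its 12 tested introns, 11 had a lower mean in siSFSWAP, with a median change of −6.36 points. In 7 every siSFSWAP library lay below every siNT library, which held for 15.3% of all tested introns. The 12 include an 87-nt form in no annotated transcript that overlaps intron 5. Over the 11 MANE introns of VARS1, 10 had a lower mean and in 6 the groups did not overlap. Its mitochondrial counterpart VARS2 had a lower mean in 6 of 7 tested introns (median change −6.16 points), and AARS2, the mitochondrial alanyl enzyme, in 4 of 4 (median −5.67 points), and none of these passed the test. The mean depth of these VARS2 and AARS2 introns was 20.5 to 52.8 reads. Other annotated genes overlap all of them, ENSG00000288473 in VARS2 and ENSG00000272442 and TMEM151B in AARS2. The part of those genes in the reads was not tested.

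MARS1, the cytosolic methionyl-tRNA synthetase (ENSG00000166986.15), had the deepest intron of the named set, with a mean of 638 reads. Its last intron, number 20, had 8.32%, 9.15% and 10.1% inclusion in siSFSWAP, against 13.0%, 17.1% and 19.6% in siNT, a change of −7.34 points (adjusted p 0.0311). The groups were narrow and did not overlap. The 12 tested MARS1 introns went both ways, 7 with a lower mean in siSFSWAP and 5 with a higher one. Among all genes whose spliced reads were not called, as those of MARS1, 58% of introns had a lower mean. Intron 20 of MARS1 and intron 15 of VARS1 lost their adjusted p when 1 library was left out (up to 0.27 and 0.233 over the 6 fits).

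QARS1 (ENSG00000172053.18) had 2.46%, 3.53% and 5.25% inclusion of intron 21 in siSFSWAP, against 6.31%, 19.9% and 23.8% in siNT (change −12.9 points, adjusted p 0.104). The siNT a value lay close to the highest siSFSWAP value, well under siNT b and c. Of the 9 tested QARS1 introns 8 had a lower mean in siSFSWAP, by −12.9 to −1.47 points. CARS1, the cytosolic cysteinyl enzyme, had 13.1%, 16% and 16.2% inclusion of intron 21 of 22 in siSFSWAP, against 19.5%, 30.7% and 27.0% in siNT (chr11:3002054-3002540, change −10.6 points, adjusted p 0.119). HARS2, the mitochondrial histidyl enzyme, went the other way. Its intron 7 of 12 (chr5:140696202-140696520) had 36.5%, 68.4% and 52.6% inclusion in siSFSWAP, against 30%, 36.5% and 37.9% in siNT (change 17.7 points, adjusted p 0.339), and the groups overlapped.

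**Figure D1:**
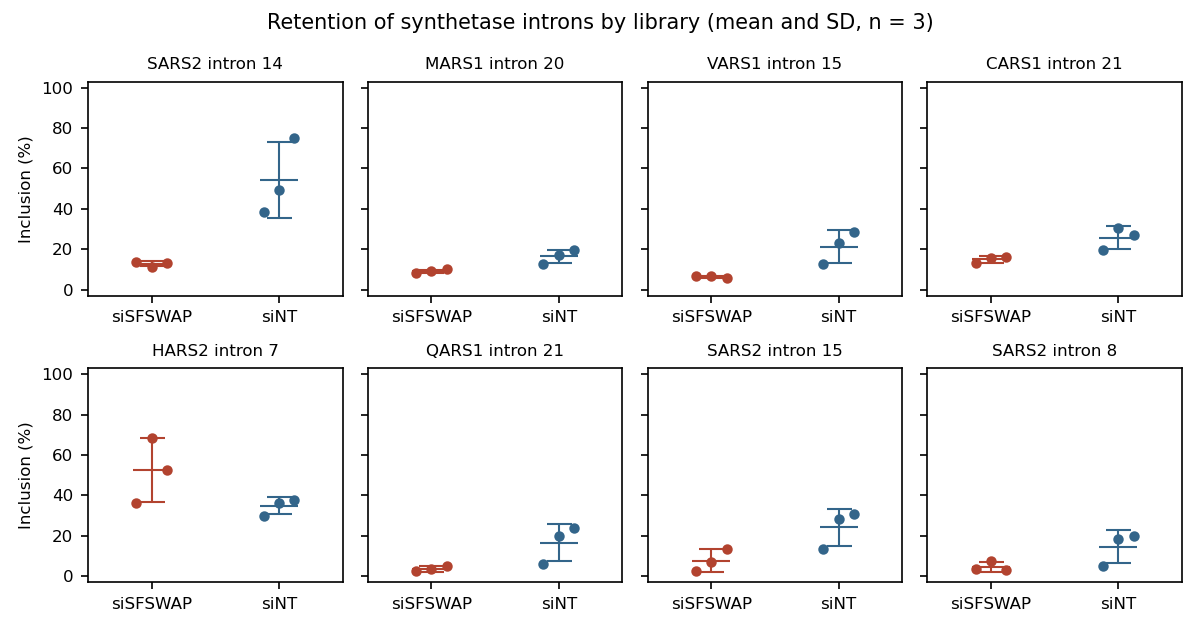
Inclusion in percent of 8 synthetase introns in siSFSWAP (red) and siNT (blue), with 1 point per library, the mean as a horizontal mark and the SD as bars (n = 3). The 3 siSFSWAP values of SARS2 intron 14 lie between 11.4% and 13.8%, below every siNT library, and HARS2 intron 7 is the 1 panel with a higher siSFSWAP mean.

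By compartment, the 31 tested introns of mitochondrial enzymes included the 1 call and had a median change of −3.31 points, while the 73 introns of cytosolic enzymes had 0 calls, 2 introns past the adjusted p alone, 14 at an unadjusted p under 0.05 (19.2%, against 3 of the 31 mitochondrial introns, 9.68%) and a median change of −0.54 points. The siSFSWAP libraries lay below all siNT libraries in 6 mitochondrial introns (19.4%) and in 16 cytosolic introns (21.9%). The 6 tested introns of GARS1 and KARS1 showed no such separation in either direction. The introns of mitochondrial enzymes were more retained in siNT to begin with. Over the 96 introns that belong to a MANE transcript, median inclusion was 5.24% in siSFSWAP and 11.1% in siNT for the 29 mitochondrial introns, and 3.78% in siSFSWAP and 4.76% in siNT for the 61 cytosolic introns. Of the 12 MANE introns with over 20% inclusion in siNT, 9 belong to mitochondrial and 3 to cytosolic enzymes. The difference between the compartments was not tested.

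The highest inclusion values do not mark retained introns of the reference transcripts. All 9 tested introns with over 80% inclusion in siNT lie outside the MANE transcripts, and the highest MANE value was the 54.2% of SARS2. IARS1, the cytosolic isoleucyl enzyme, had 96.5% inclusion in siSFSWAP and 98.4% in siNT of a 1048-nt intron (chr9:92250760-92251807) and 94.3% in siSFSWAP and 98.1% in siNT of a 3233-nt intron (chr9:92253447-92256679). A 199-nt MARS1 intron (chr12:57512104-57512302) had 96.5% in siSFSWAP and 97.4% in siNT. Each shares an end with a MANE intron, so that reads of ordinary exons can count as inclusion, and none passed the test (adjusted p 0.721, 0.749 and 0.93). At the low end, KARS1 intron 9 of 13 (chr16:75631254-75631415) had 0.531% inclusion in siSFSWAP and 0.334% in siNT.

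Exon skipping moved in both directions in these genes. Of 256 tested exon events 2 were called lower in siSFSWAP and 2 higher, where the whole table called 0.655% lower and 1.44% higher. Past the adjusted p alone were 13 events, 8 lower and 5 higher in siSFSWAP, against 5.42% of all tested events. Every siSFSWAP library lay below every siNT library in 27 events (10.5%), against 9.03% of all events, and above in 42 (16.4%), against 14.2%. These shares are near those of the whole table. The 2 lower calls were in cytosolic enzymes, IARS1 and LARS1, and both higher calls in 1 mitochondrial gene, TARS2. In the annotation, 99 of the 238 tested exons belong to a MANE transcript and 82 to no transcript.

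Exons that passed are given, for LARS1, IARS1, NARS2, TARS3 and exon 9 of TARS2, to show their size and the alternative splice sites, written 5′ to 3′ from GRCh38 in lower case, with the 2 intronic bases on each side in capitals. Positions are those of the exon alone.
LARS1 exon 13 of 32, 54 nt (chr5:146153174-146153227, minus strand): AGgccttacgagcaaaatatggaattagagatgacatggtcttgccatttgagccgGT
IARS1 exon 5 of 34, 83 nt (chr9:92286536-92286618, minus strand): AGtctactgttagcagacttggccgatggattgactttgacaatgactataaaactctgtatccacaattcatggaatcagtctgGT
IARS1 72-nt form (chr9:92286536-92286607, minus strand): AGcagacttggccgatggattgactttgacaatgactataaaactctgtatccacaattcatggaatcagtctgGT
IARS1 69-nt form (chr9:92286536-92286604, minus strand): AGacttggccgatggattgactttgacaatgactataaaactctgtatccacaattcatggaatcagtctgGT
TARS2 exon 9 of 18, 99 nt (chr1:150496810-150496908, plus strand): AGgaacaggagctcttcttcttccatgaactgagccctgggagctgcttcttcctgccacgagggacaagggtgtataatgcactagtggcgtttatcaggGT
NARS2 exon 9 of 14, 38 nt (chr11:78478438-78478475, minus strand): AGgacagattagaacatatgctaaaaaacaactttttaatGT
NARS2 33-nt form (chr11:78478438-78478470, minus strand): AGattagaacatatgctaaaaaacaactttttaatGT
NARS2 76-nt exon (chr11:78453970-78454045, minus strand): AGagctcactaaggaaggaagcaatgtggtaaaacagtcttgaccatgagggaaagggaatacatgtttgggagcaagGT
TARS3 105-nt exon (chr15:101699331-101699435, minus strand): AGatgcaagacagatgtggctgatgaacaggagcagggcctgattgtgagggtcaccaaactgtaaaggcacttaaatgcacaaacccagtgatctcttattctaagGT
The IARS1 forms differ only in their 3′ splice site, and so do the 38-nt and 33-nt forms of NARS2.

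Exon 13 of LARS1, the cytosolic leucyl-tRNA synthetase (ENSG00000133706.19), was skipped more often in siSFSWAP. Inclusion was 81.1%, 74.2% and 67.6% in siSFSWAP, against 98.3%, 96.2% and 100% in siNT. The groups lay far apart and did not overlap. The means were 74.3% ± 6.76 in siSFSWAP and 98.2% ± 1.9 in siNT (SD, n = 3 each), a change of −23.9 points (adjusted p 1.97e-06). Skipping reads numbered 42, 31 and 40 in siSFSWAP and 7, 7 and 0 in siNT. This exon was called whichever library was left out, at −27.3 to −20.5 points, and also by limma on the log odds. Its 54 nt keep the reading frame. A second LARS1 exon form of 234 nt (chr5:146142872-146143105), in no annotated transcript, had 93.8%, 91.7% and 68.8% in siSFSWAP, against 97.1%, 97.7% and 100% in siNT (change −13.6 points, adjusted p 0.0883).

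IARS1 exon 5 (ENSG00000196305.19) is listed in 3 forms that share their skipping reads, so these are not separate observations. The skipping reads were 4, 9 and 12 in siSFSWAP, against 6, 1 and 3 in siNT. The 69-nt form, in no annotated transcript, had 86.6%, 59.0% and 57.0% inclusion in siSFSWAP, against 92.0%, 96.3% and 92.1% in siNT (change −25.9 points, adjusted p 0.0206), and is the form called. Library siSFSWAP a stayed near the siNT values. The 72-nt form changed by −16.4 points (adjusted p 0.0173) and the annotated 83-nt form by −7.95 points (adjusted p 0.0208), with 97.7%, 89.2% and 86.1% inclusion in siSFSWAP and 98.8%, 99.5% and 98.5% in siNT. Leaving out siSFSWAP library b or c or siNT library b ended the call of the 69-nt form (adjusted p up to 0.202). The same skipping reads set against the more abundant 83-nt form gave the smaller change.

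TARS2, the mitochondrial threonyl-tRNA synthetase (ENSG00000143374.18), kept exons 8 and 9 more often in siSFSWAP. Exon 8 had 64.9%, 70.0% and 90.7% inclusion in siSFSWAP, against 45.6%, 45.2% and 54.5% in siNT (change 26.8 points, adjusted p 0.0316). Exon 9 had 75.3%, 71.0% and 93.0% in siSFSWAP, against 48.4%, 46.0% and 63.6% in siNT (change 27.1 points, adjusted p 0.0159). The groups did not overlap in either exon. Both events count the same skipping reads, of a junction that leaves out the 2 exons together, which numbered 10, 9 and 2 in siSFSWAP and 40, 17 and 10 in siNT. Both lengths are multiples of 3. A separate event in which exon 8 alone is skipped and exon 9 follows had 98.6%, 98.1% and 100% inclusion in siSFSWAP, against 87.3%, 90.6% and 83.6% in siNT (change 11.7 points, adjusted p 0.0186). The exon 8 call was lost without 5 of the 6 libraries (all but siNT library c, adjusted p up to 0.202) and the exon 9 call without siSFSWAP library a or c or siNT library b (adjusted p up to 0.141).

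NARS2, the mitochondrial asparaginyl-tRNA synthetase (ENSG00000137513.11), had more skipping of exon 9 and more use of an exon that lies inside an intron. Exon 9, of 38 nt, had 88.1%, 92.0% and 82.7% inclusion in siSFSWAP, against 98.7%, 97.1% and 98.8% in siNT (change −10.6 points, adjusted p 0.0104). Its 33-nt form, which shares the skipping reads, changed by −19.9 points (adjusted p 0.0127). The 76-nt exon inside intron 11, present only in transcripts annotated as targets of nonsense-mediated decay, had 5.74%, 9.81% and 9.08% in siSFSWAP, against 2.02%, 1.82% and 0% in siNT (change 6.93 points, adjusted p 0.0459). It rests on 7, 5 and 6 inclusion reads in siSFSWAP and 5, 2 and 0 in siNT. TARS3, a second cytosolic threonyl-tRNA synthetase gene (ENSG00000185418.16), likewise used a 105-nt exon inside intron 10 more often. Inclusion was 21.3%, 21.2% and 30.8% in siSFSWAP, against 8.20%, 6.38% and 4.00% in siNT (change 18.2 points, adjusted p 0.0345), on 19, 7 and 8 inclusion reads in siSFSWAP and 10, 3 and 1 in siNT. That exon also is annotated only in a transcript marked for nonsense-mediated decay. Each event of IARS1, TARS2, NARS2, NARS1 and TARS3 that passed the adjusted p without being called lost it in at least 1 of the 6 fits that leave out a library (adjusted p up to 0.231).

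The remaining named exons were smaller or less certain. NARS1, the cytosolic asparaginyl enzyme, had 2 forms of 1 exon (267 and 207 nt) that passed the adjusted p at −3.41 points each (adjusted p 0.0401 and 0.0399), on 2, 6 and 4 skipping reads in siSFSWAP and 1, 0 and 0 in siNT. Exon 13 of 30 of VARS2 (chr6:30920089-30920216) had 93.9%, 86.0% and 83.7% inclusion in siSFSWAP, against 78.3%, 66.7% and 51.2% in siNT (change 22.5 points, adjusted p 0.148), where another annotated gene overlaps (ENSG00000288473). Exon 11 of 16 of SARS2 (chr19:38917921-38918008), followed by a GC in place of the usual GT, had 95.1%, 96.2% and 100% in siSFSWAP, against 94.4%, 71.0% and 65.6% in siNT (change 20.1 points, adjusted p 0.151). In both exons siNT a was the siNT library nearest to siSFSWAP, and without siNT a both were called, at 28.9 and 28.8 points. A 51-nt MARS1 exon and a 91-nt VARS1 exon differed by 11.7 and 10.8 points (adjusted p 0.234 and 0.142).

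**Figure D2:**
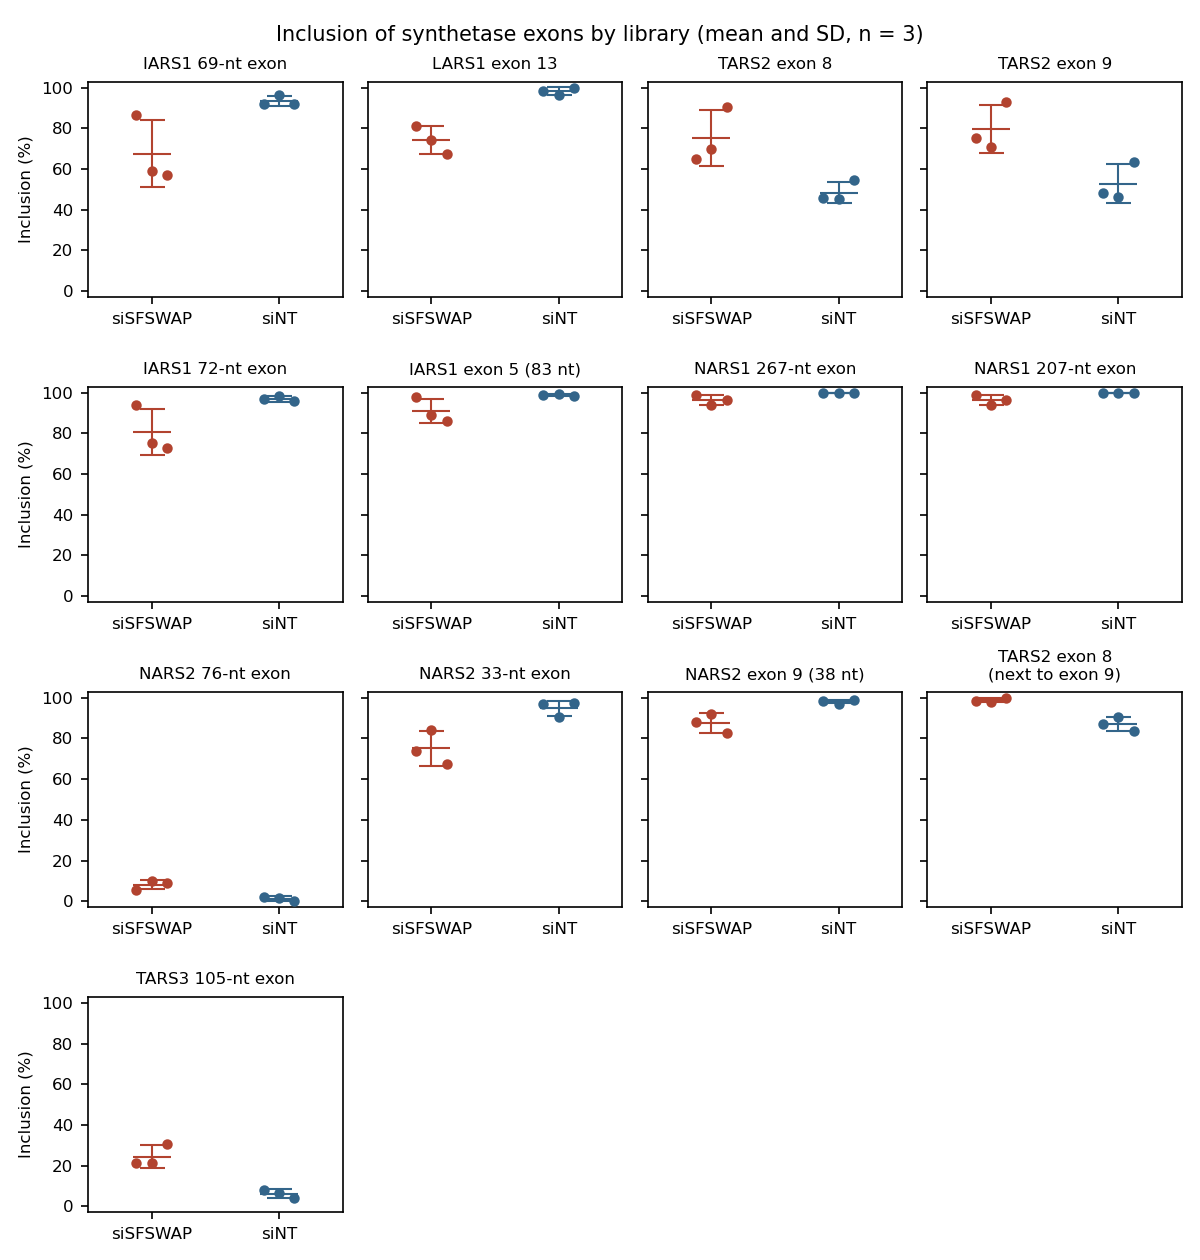
Inclusion in percent of the 13 synthetase exon events past the adjusted p, in siSFSWAP (red) and siNT (blue), with 1 point per library, the mean as a horizontal mark and the SD as bars (n = 3). The first row holds the 4 called events, with the 69-nt form of IARS1 and LARS1 exon 13 lower in siSFSWAP and TARS2 exons 8 and 9 higher, and the IARS1, NARS1 and NARS2 forms of 1 exon share their skipping reads.

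Spliced reads, the junction reads of a gene in the skipped exon table, given as CPM (scaled to the library total), fell for most cytosolic enzymes in siSFSWAP. The sums depend on splicing and on RNA amount alike and are no measure of expression, and in a bulk sample fewer cells and less RNA per cell cannot be told apart. Of 34 synthetase genes tested, 16 were lower and 6 higher in siSFSWAP by the adjusted p, where the whole table had 15.6% of genes lower and 14.7% higher. Among the 18 cytosolic genes 12 were lower and 2 higher (median log2 change −0.34), and among the 14 mitochondrial genes 3 were lower and 4 higher (median 0.10). The median log2 change over all 10780 genes tested was −0.0047. Of the genes shared by both compartments, GARS1 was lower (log2 change −0.62, adjusted p 0.000677) and KARS1 did not pass (−0.17, adjusted p 0.107).

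IARS1 had the largest fall. It had 203, 180 and 152 spliced-read CPM in siSFSWAP, against 366, 349 and 366 in siNT (log2 change −1.02, SE 0.10, limma adjusted p 0.000301). TARS1, a cytosolic threonyl enzyme, had 491, 525 and 512 in siSFSWAP, against 749, 909 and 881 in siNT (log2 change −0.73, SE 0.08, adjusted p 0.000353). SARS1, NARS1, HARS1 and WARS1, the seryl, asparaginyl, histidyl and tryptophanyl enzymes, fell by 0.66, 0.60, 0.56 and 0.53 on the log2 scale. FARSB and FARSA, the subunits of the phenylalanyl enzyme, fell by 0.45 and 0.29, and RARS1, YARS1, AARS1 and LARS1 by 0.37, 0.35, 0.32 and 0.27. In each of these 12 genes every siSFSWAP library lay below every siNT library, as in 2500 of all 10780 genes tested. The 12 were picked by the test on the same values, so the separation is no further evidence. Leaving out siSFSWAP library a ended the call of AARS1 (adjusted p 0.056), siSFSWAP b or c that of LARS1 (up to 0.069) and siSFSWAP c or siNT b that of FARSA (up to 0.0751). EPRS1, CARS1, MARS1 and TARS3 did not pass, at log2 changes of −0.18, −0.14, 0.12 and 0.16.

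QARS1 and VARS1 were the cytosolic exceptions. QARS1 had 253, 238 and 244 spliced-read CPM in siSFSWAP, against 157, 91.9 and 75.1 in siNT (log2 change 1.25, SE 0.20, adjusted p 0.00134), the largest rise among the 34 genes tested. The siSFSWAP libraries were close together and the siNT libraries were not, with siNT a nearest to siSFSWAP. Without any 1 library the log2 change of QARS1 stayed between 1.03 and 1.56. VARS1 had 148, 154 and 133 in siSFSWAP, against 125, 102 and 80.1 in siNT (log2 change 0.52, SE 0.14, adjusted p 0.0142), and without siSFSWAP library b its adjusted p was 0.0671.

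The mitochondrial enzymes split. SARS2 had 29.1, 30.6 and 25.6 spliced-read CPM in siSFSWAP, against 20.6, 16.4 and 13.0 in siNT (log2 change 0.77, SE 0.16, adjusted p 0.00447). CARS2, AARS2 and VARS2, the cysteinyl, alanyl and valyl enzymes of the mitochondrion, rose by 0.53, 0.51 and 0.38 on the log2 scale (adjusted p 0.00861, 0.00945 and 0.0354). Other annotated genes overlap SARS2, AARS2 and VARS2, as given above, and their part in these sums was not tested. NARS2 had 57.1, 43.9 and 50.2 in siSFSWAP, against 70.6, 85.5 and 80.5 in siNT (log2 change −0.64, SE 0.12, adjusted p 0.00267). HARS2 and LARS2 fell by 0.57 and 0.32 (adjusted p 0.00887 and 0.0438), and LARS2 and VARS2 lost their call without any library other than siNT a (adjusted p up to 0.171 and 0.145), and AARS2 without siSFSWAP b (0.0542). The other 7 mitochondrial genes tested had log2 changes between −0.32 for FARS2 and 0.27 for TARS2 and did not pass. Without siNT library a 7 mitochondrial genes were higher instead of 4, and 27 synthetase genes changed in place of 22. Calls rose over the whole table as well, from 15.6% to 24.4% of genes lower and from 14.7% to 23.2% higher.

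**Figure D3:**
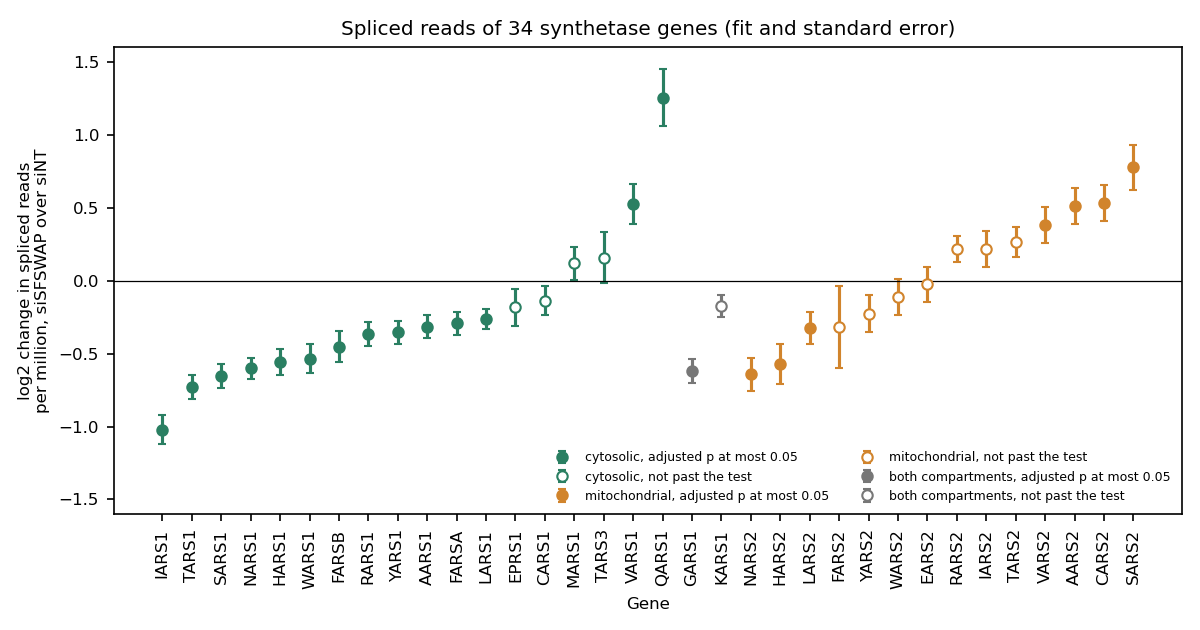
Log2 change in spliced-read CPM, siSFSWAP over siNT, of 34 synthetase genes, with the fitted value and its standard error (3 libraries a group). Filled points passed an adjusted p of 0.05, open points did not, and colour marks the compartment. Among cytosolic enzymes IARS1 lies lowest at −1.02 and QARS1 highest at 1.25, while the mitochondrial enzymes spread from NARS2 at −0.64 to SARS2 at 0.77.

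Most introns of the genes with more spliced reads in siSFSWAP were less retained there. In the 6 members with higher spliced reads (QARS1, VARS1, SARS2, AARS2, VARS2 and CARS2), 35 of 39 tested introns (89.7%) had a lower mean inclusion in siSFSWAP, with a median change of −5.92 points. Among all genes with higher spliced reads this held for 75.9% of 2982 introns, with a median of −2.32 points. In the 12 members with lower spliced reads and a tested intron, 22 of 45 introns (48.9%) had a lower mean, against 45.2% of 1550 introns among all such genes. Across the 24 members with tested introns, the median intron change and the log2 change in spliced reads had a Spearman coefficient of −0.72 and Pearson's r −0.66, and across 3708 genes the Spearman coefficient was −0.31 and r −0.30. The points share the same 6 libraries and spliced reads enter both measures, so the relation is a description across genes, which are not independent replicates. Introns outside the MANE transcripts are among these counts, medians and coefficients. The CARS2 median of −6.74 points rests on such an intron, with a mean of 23.8 reads and a change of −15.4 points. The tested MANE intron of CARS2 changed by 1.95 points.

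Exons of the same genes went the other way. Among exons with at least 50% inclusion in siNT, 35 of 41 events (85.4%) in the 6 members with higher spliced reads had a higher mean inclusion in siSFSWAP (median change 6.27 points), against 68.4% of 5788 events among all such genes. In the 14 members with lower spliced reads 32 of 73 events (43.8%) did, against 47.3% of 6579 events among all such genes. SARS2 and VARS2 had the highest median changes in exon inclusion of the 30 members, 14.2 and 16.6 points. NARS2 and IARS1, both with lower spliced reads, had medians of −8.57 and −7.95 points. The IARS1 median, over 5 events, is the value of the 83-nt form of exon 5, and the other listed forms of that exon are among these events. Forms of 1 exon that share skipping reads entered the counts, medians and coefficients here as separate events, though they are not separate observations. The lowest median, −10.43 points, was that of TARS3, over 2 events, with a log2 change in spliced reads of 0.16 that did not pass. The Spearman coefficient was 0.50 and Pearson's r 0.53 over 30 members, and 0.17 and 0.18 over 7292 genes. Spliced reads are summed from the same inclusion and skipping reads that give exon inclusion. An included exon gives reads at both of its junctions, so more inclusion by itself can raise the sum. The counts, medians and coefficients of exons are therefore a description and no independent support for a link.

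The intron table gives the spliced and unspliced junction reads side by side, and they were summed per gene over its tested introns of the MANE transcript, because other rows of the table can count reads of ordinary exons as unspliced. Scaled to the total of that table (CPM), QARS1 had 536, 489 and 485 spliced reads in siSFSWAP, against 362, 190 and 139 in siNT (8 introns). Its unspliced reads were 26.1, 37.9 and 28.4 in siSFSWAP, against 26.0, 27.5 and 29.7 in siNT. The spliced mean was 2.19 times the siNT mean with no overlap between the groups, and the unspliced mean 1.11 times with the groups overlapping. VARS1 had a spliced mean of 1.40 times and an unspliced mean of 0.60 times the siNT mean (11 introns). For SARS2 the ratios were 1.87 and 0.57 (5 introns). Its unspliced reads were 10.6, 11.9 and 13.4 in siSFSWAP, against 16.6, 27.2 and 19.4 in siNT, without overlap. The spliced and unspliced ratios were 1.18 and 0.65 for AARS2 (4 introns) and 1.28 and 0.61 for VARS2 (7 introns). CARS2 had more of both, at 1.61 and 1.81 (1 intron). IARS1 had less of both, at 0.47 times the siNT mean for spliced and 0.64 times for unspliced reads (6 introns), and TARS1 likewise at 0.57 and 0.54 (2 introns). These ratios were not tested.

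**Figure D4:**
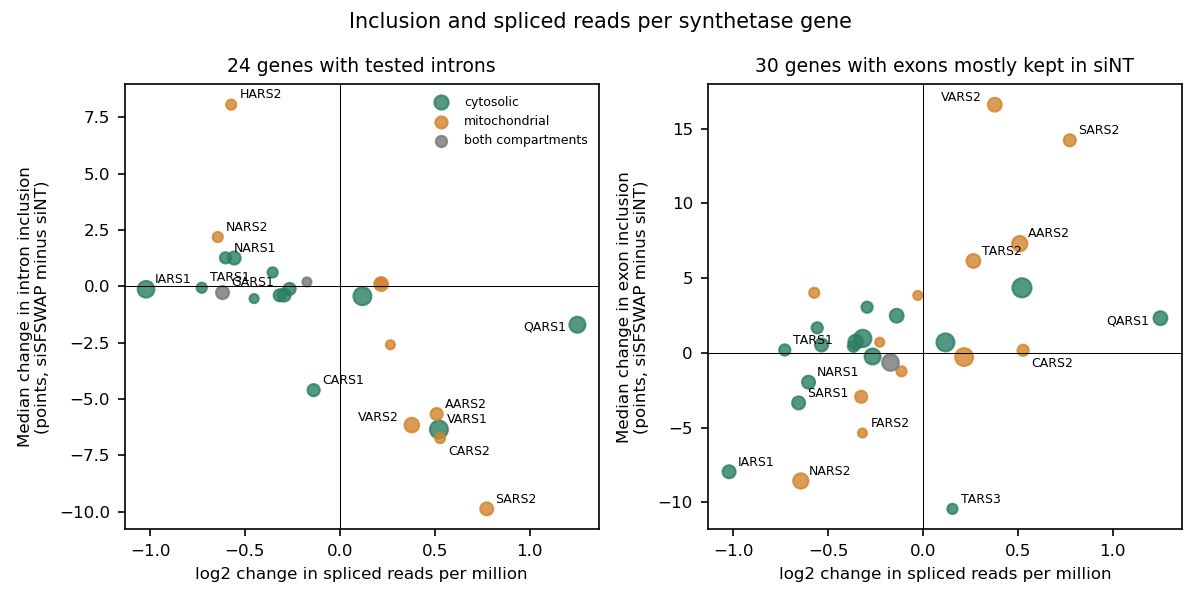
Median change in inclusion of the tested introns (left, 24 genes) and of the exon events with at least 50% inclusion in siNT (right, 30 genes) per synthetase gene, in percentage points, against the log2 change in spliced-read CPM, both siSFSWAP against siNT. Each point is a gene, its area grows with the number of introns or events, and colour marks the compartment. SARS2 lies at −9.88 points for introns and 14.2 points for exons.

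Base composition went with the change. Median GC content was 51.8% and median length 164 nt in synthetase introns, against 55.4% and 161 nt for all tested introns. Of the 26 synthetase introns with at least 60% GC, 23 had a lower mean in siSFSWAP (median change −4.53 points), against 2882 of 3789 such introns in the whole table (median −2.10 points). Of the 41 with under 45% GC, 20 had a lower mean (median 0.20 points), against 1224 of 2864 in the whole table (median 0.2 points). Over the 61 introns with 5% to 95% inclusion in siNT, the Spearman coefficient between GC content and change was −0.45 and r −0.38, with a coefficient of −0.60 in 23 mitochondrial and −0.28 in 37 cytosolic introns, and −0.36 over 5953 introns of the whole table. For the 64 exons in that range the Spearman coefficient was 0.38 and r 0.47, with a coefficient of 0.53 in 38 mitochondrial and 0.08 in 25 cytosolic exons, and 0.37 over 17162 exons of the whole table. These are descriptions over introns and exons that share genes and libraries.

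The relation to GC content also separated the siNT libraries from each other. Over the same 61 introns, siNT library a minus the mean of b and c had a Spearman coefficient of −0.37 with GC content, and siSFSWAP minus siNT a alone had a Spearman coefficient of −0.38. Without siNT a the Spearman coefficient was −0.46. Over the 64 exons, siNT a minus the mean of b and c had a Spearman coefficient of 0.40, siSFSWAP minus siNT a alone 0.07, and siSFSWAP minus siNT without siNT a 0.43. Depth was highest in siNT a, and its part in these values was not tested. Introns of at most 300 nt had a median change of −1.84 points (70 introns) and longer ones 0.29 points (40 introns). Over all tested introns the medians were −0.72 points (7542 introns) and 0.02 points (2613 introns). Of the 110 introns, 107 begin with GT and end with AG, near the 98.1% of all tested introns.

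**Figure D5:**
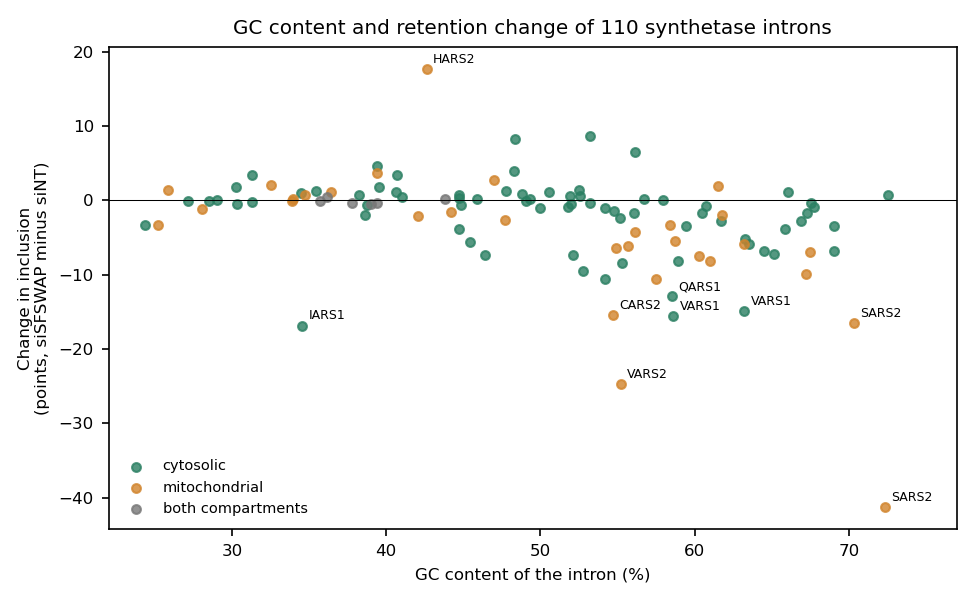
Change in inclusion (percentage points, siSFSWAP minus siNT) against the GC content in percent of each of the 110 tested synthetase introns, coloured by compartment, with gene names on introns that differed by over 12 points, some of them under a mean of 50 reads. The lowest point is SARS2 intron 14, at 72.3% GC and −41.3 points, and the highest HARS2 intron 7, at 42.6% GC and 17.7 points.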

How the data were processed

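RNA of 3 siSFSWAP and 3 siNT samples was sequenced by the authors as single-end reads from polyadenylated RNA. Per the labels and the methods, the authors trimmed reads with cutadapt 1.9.1, aligned them to GRCh38 with STAR 2.7 and ran rMATS. The deposited tables list, for each event, whole-number inclusion and skipping junction read counts and effective lengths of the forms, with 3 libraries in each cell, in no unit of expression. The authors' own p-value and FDR, and a deposited score giving siNT minus siSFSWAP inclusion, were not used as results. Groups carry only numbers in the tables, so they were assigned from how the study defines that difference, with SFSWAP itself as a check. No source used here states whether counting used strand.

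Tested events had 20 or more reads per library on average, at least 5 reads of each form over the 6 libraries, and reads in at least 2 libraries a group. Each was tested by a two-sided quasi-binomial F test with dispersions moderated by limma 3.58.1 (squeezeVar, trend on depth, floor 1) in R 4.3.3, with Benjamini-Hochberg adjustment over the whole table. A call took an adjusted p no higher than 0.05 with a difference in inclusion of 0.2 or more, the thresholds in the methods. Spliced reads per gene were junction counts summed over the skipped exon table, taking the deepest event of each exon, scaled to the library total (CPM) and compared by limma-trend on log2(CPM + 0.5) over genes averaging 20 or more reads. A negative binomial count test was planned for these sums and not run, because each deposited cell joins 3 libraries and was not recorded as a count column. Fold changes are therefore on the log2(CPM + 0.5) scale. Positions and intron numbers come from GENCODE release 44, and sequences from GRCh38. The tests were tried on simulated data.

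The members, the lists and the tests were chosen with earlier results of these data known. The events named are those called, those past the adjusted p alone, the 5 other introns and 5 other exons with the largest change at a mean of at least 50 reads, the genes with changed spliced reads, and the 3 introns with the highest and the 1 with the lowest siNT inclusion. The other splits, lengths, GC classes and the sums of the intron table were chosen after values were seen. The samples are labelled biological replicates. The alternatives were other read minimums, a change of 0.1, limma on log odds, other dispersions, other scalings and each library left out.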

Additional observations from a re-analysis of the deposited data

How the results depend on the processing

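The SARS2 intron call stood at a minimum of 50 reads, with no filter on the forms, with dispersions not floored and without a trend, and so did the 4 exon events. A change of 0.1 gave 2 introns and 9 exon events. Over the whole table it called 248 introns lower and 22 higher, and 652 exon events lower and 1124 higher. Limma on log odds gave 1 exon event, LARS1 exon 13, where it called 94 of all exon events lower and 177 higher. It gave 0 synthetase introns, and 0 introns over the whole table. Without 1 library the calls ranged over 0 to 2 introns and 1 to 10 exon events, the most without siNT library a. Calls over the whole table varied as well, from 14 to 498 introns lower and 1 to 44 higher. For exon events they ranged over 134 to 354 lower and 166 to 1513 higher, again with the most without siNT library a. For spliced reads, voom, median ratio scaling, a pseudocount of 2, inclusion reads only, no filter and the reads of the intron table (24 of the 34 genes) kept 12 of 18 cytosolic genes lower in the first 5, with 20 to 23 members changed, and 9 of 13 in the last, with 17 changed. Of these, voom, median ratio scaling, the pseudocount and the intron table's reads were added after seeing the data. Without 1 library the higher genes ranged over 1 to 3 cytosolic and 2 to 7 mitochondrial, and the changed members over 17 to 27. Among all genes tested, those fits called 8.22% to 24.4% lower and 8.31% to 23.2% higher, the most without siNT library a. No tested alternative reversed a call. The planned negative binomial tests with their own scalings were not run. No paired analysis was possible because the lists in the tables carry no replicate numbers. Depth limits the tested introns of SARS2, VARS2 and AARS2, which had means of 20.5 to 72.3 reads per library, and those of other genes near the minimum of 20 reads.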

Other observations

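Other genes of tRNA charging were compared in the same fit of spliced reads, from lists chosen with earlier results known. Of 15 tested genes of other tRNA charging, editing and transamidation, 1 was lower and 1 higher in siSFSWAP, with a median log2 change of 0.09. Among all genes tested 15.6% were lower and 14.7% higher. QRSL1, a subunit of the amidotransferase that makes mitochondrial glutaminyl-tRNA, had 34.9, 34.7 and 35.5 spliced-read CPM in siSFSWAP, against 36.7, 61.2 and 52.2 in siNT (log2 change −0.48, limma adjusted p 0.0371). DTD1, which removes D-amino acids from tRNA, had 27.7, 28.9 and 23.9 in siSFSWAP, against 23.6, 17.3 and 16.3 in siNT (log2 change 0.50, adjusted p 0.0249). Of the 11 genes of the multisynthetase complex 3 were lower (27.3%, IARS1, RARS1 and LARS1), QARS1 was higher (9.09%) and 7 were not called. These stand beside the same 15.6% and 14.7% of all genes. The scaffold genes AIMP1, AIMP2 and EEF1E1 did not pass, at −0.13, −0.29 and −0.27.

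Of 24 tested genes of the amino acid response, 14 were lower and 2 higher in siSFSWAP, with a median log2 change of −0.40, against 15.6% lower and 14.7% higher among all genes. ATF4, its central transcription factor, had 206, 212 and 228 spliced-read CPM in siSFSWAP, against 244, 317 and 338 in siNT (log2 change −0.46, adjusted p 0.00937). SLC3A2, a subunit of amino acid exchangers, had 329, 428 and 454 in siSFSWAP, against 507, 1163 and 1231 in siNT (log2 change −1.17, adjusted p 0.00683), and siNT a lay nearest to siSFSWAP. DDIT3, a transcription factor of the stress response, had 6.85, 8.60 and 9.40 in siSFSWAP, against 11.7, 24.7 and 28.0 in siNT (log2 change −1.24, adjusted p 0.00541). ASNS, asparagine synthetase, did not pass (−0.34, adjusted p 0.0804), and SESN2 and SHMT2 were higher, by 0.44 each. For 12 of the 16 changed genes of this list siNT a was the siNT library nearest to siSFSWAP, and its part in these values was not tested.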
